A study of Mus musculus with 8 samples.

Results

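The genes encoded by mitochondrial DNA were followed in mouse tumours grown from MC38 cells, a colon adenocarcinoma line, in C57BL/6J mice. The members were all genes in the raw count table whose GENCODE M21 symbol begins with mt-, which gave 37 of the 56691 gene identifiers: 13 protein genes, 2 rRNA genes and 22 tRNA genes. 4 control samples were compared with 4 samples from mice that received C26, a compound known here by its code alone, on alternate days over 2 weeks at a dose of 10 mg/kg. What the control mice received is not given in the sources used here, nor whether each sample came from its own animal, so the p-values measure the spread between these samples.

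Mitochondrial DNA is a small circle that encodes core subunits of the respiratory chain and ATP synthase, the RNA of the mitochondrial ribosome and a set of tRNAs. Both strands are copied by the polymerase POLRMT into long precursors, from which the tRNAs are cut out to release the other RNAs, and most of the released mRNAs are then polyadenylated. All other subunits of these complexes come from nuclear genes, so each complex apart from complex II is built from products of both genomes. Bulk tumour RNA was measured, and in it fewer cells of a type and less RNA per cell cannot be told apart.

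The libraries were made from polyadenylated RNA and held 17075176 to 21517425 counts each. Levels are CPM (counts scaled to library totals that TMM had adjusted for composition), and genes were tested with edgeR's quasi-likelihood test over all 15755 genes that passed its low-count filter, with an adjusted p under 0.05 as the threshold. Of the epithelial markers examined, Cdh1 lay between 2.39 and 3.805 CPM over the 8 libraries, and each of the other 8 stayed at or below 0.317 CPM in every library. Most of these markers thus do not bear out an epithelial label, and Cdh1 alone was above that level. Skeletal muscle RNA was uneven: the mean log2 CPM of 17 muscle genes was 0.102 to 1.88 in control and 1.64 to 4.89 in C26, highest in C26 library 2.

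Genes encoded by mitochondrial DNA took a similar share of counts in both groups. Of all counts they held 2.10%, 2.08%, 2.65% and 1.82% in the control libraries, numbered 1 to 4 in that order throughout. The C26 libraries, in the same order, gave 2.02%, 2.27%, 1.85% and 1.985%. The groups overlapped, and control libraries 3 and 4 were the highest and the lowest of all 8. Protein genes held almost all of it, with 2.14 ± 0.342% in control and 2.01 ± 0.175% in C26 (SD, n = 4 per group). The rRNA genes took 0.0219 ± 0.00670% and 0.0201 ± 0.00397%, and the tRNA genes 0.000392 ± 0.000158% and 0.000367 ± 7.305e-05%. C26 library 2, which had the highest muscle level, also had the highest mitochondrial share in its group, and C26 library 3, next in muscle level at 3.20, had the lowest. The part of muscle RNA in the mitochondrial values was not tested. A fit with the muscle level as a covariate was made, but that level mostly followed group. Control library 2 (1.88) lay above C26 library 4 (1.64), and otherwise every C26 library lay above every control library. The fit therefore cannot tell muscle level from treatment.

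**Figure D1:**
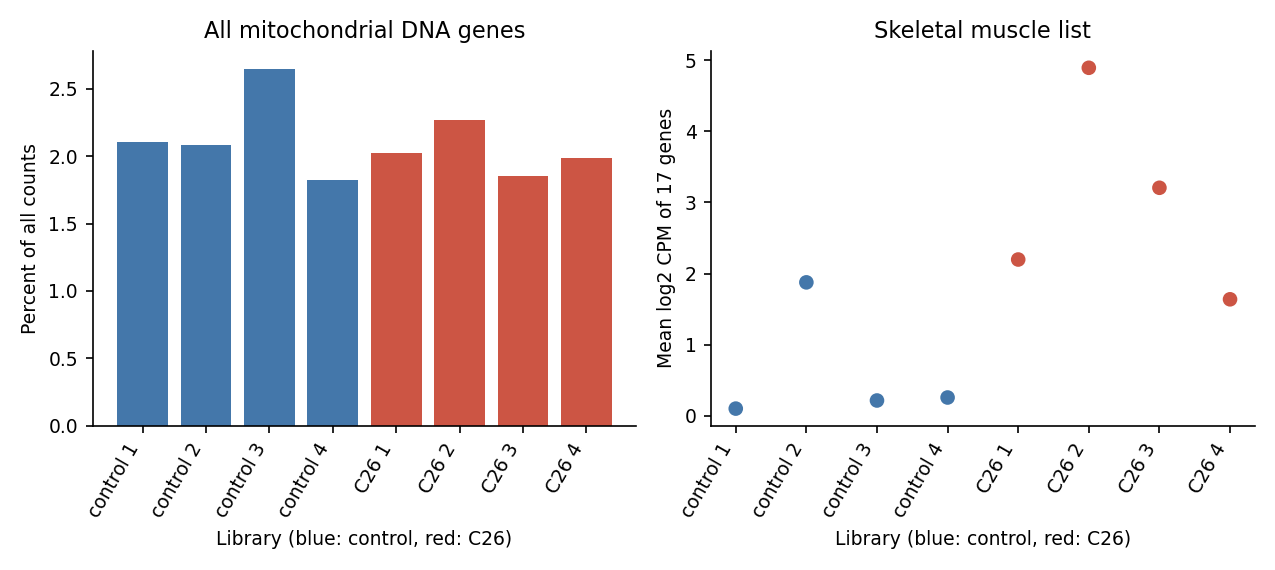
Left, the percent of all counts that fell on genes encoded by mitochondrial DNA in each library (bars, blue for control and red for C26). Right, the mean log2 CPM of 17 skeletal muscle genes in the same libraries (points); the shares of the groups overlap between 1.82% and 2.65%, while the muscle level ranges from 0.102 to 4.89.

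A stretch of mitochondrial DNA has a nearly identical copy on chromosome 1, which bears on how several of these genes can be read. Comparing the GENCODE M21 transcripts on GRCm38 (the assembly that mm10 names) found 7 pseudogenes side by side on the minus strand at chr1:24611535-24616197. They match positions 6390 to 11042 of mitochondrial DNA in the same order, with 2 mismatches over 4140 aligned bases. The matched stretch holds the whole of mt-Co2, mt-Atp8, mt-Atp6, mt-Co3, mt-Nd3 and mt-Nd4l, 31.3% of mt-Co1 and 63.6% of mt-Nd4. The copies Gm28661 of mt-Co2, Gm10925 of mt-Atp6, Gm28437 of mt-Co3, Gm10222 of mt-Nd4l and Gm28439 of mt-Nd4 had no mismatch in their aligned bases. No pseudogene is annotated for mt-Atp8, whose last 43 bases lie in the stretch that Gm10925 matches and the rest between that stretch and the one Gm28661 matches. Bases outside the alignments were not compared. Sequence shared by mt-Co3 and its copy is shown first, with the ATG start in capitals. Both mismatches within the aligned bases follow, with the differing base in capitals.
mt-Co3, chrM:8607-8666, plus strand: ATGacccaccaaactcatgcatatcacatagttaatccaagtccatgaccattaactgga
Gm28437, chr1:24613912-24613971, minus strand: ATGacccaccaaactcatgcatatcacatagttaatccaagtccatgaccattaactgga
mt-Co1, chrM:6390-6413, plus strand: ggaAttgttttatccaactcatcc
Gm29216, chr1:24616165-24616188, minus strand: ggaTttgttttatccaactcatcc
mt-Nd3, chrM:9459-9481, plus strand: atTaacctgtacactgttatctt
Gm28438, chr1:24613097-24613119, minus strand: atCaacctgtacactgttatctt
The substitutions are A1066T in mt-Co1 and T3C in mt-Nd3, counted from 1 at the first base of the mitochondrial gene. The other 10 nuclear pseudogenes with a match of at least 100 bases were 90.7% to 97.6% identical, and the highest count of any of them in a library was 94, for Gm13340, which matches mt-Co1.

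Genes inside the copied stretch had lower levels per length than all 5 protein genes outside it, and their copies had counts of a similar size to their own. Over the 6 genes wholly inside it, control levels ran from 4.30 CPM per kb for mt-Nd4l to 174.7 CPM per kb for mt-Co2, while the 5 protein genes outside it ran from 221 CPM per kb for mt-Nd5 to 8530 CPM per kb for mt-Cytb. Counts of Gm28437 were 0.883 times those of mt-Co3 in control and 0.879 times in C26, those of Gm28661 0.814 and 0.8365 times those of mt-Co2, and those of Gm10925 1.80 and 1.89 times those of mt-Atp6. For mt-Co1 and mt-Nd4, which lie partly outside, the ratios were 0.0159 and 0.0140 for Gm29216, and 0.0113 and 0.0121 for Gm28439. How reads that fit both places were counted is not given in the sources used here, so the levels of these 8 genes and of their copies are uncertain, and the part of such reads in the differences was not tested.

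**Figure D2:**
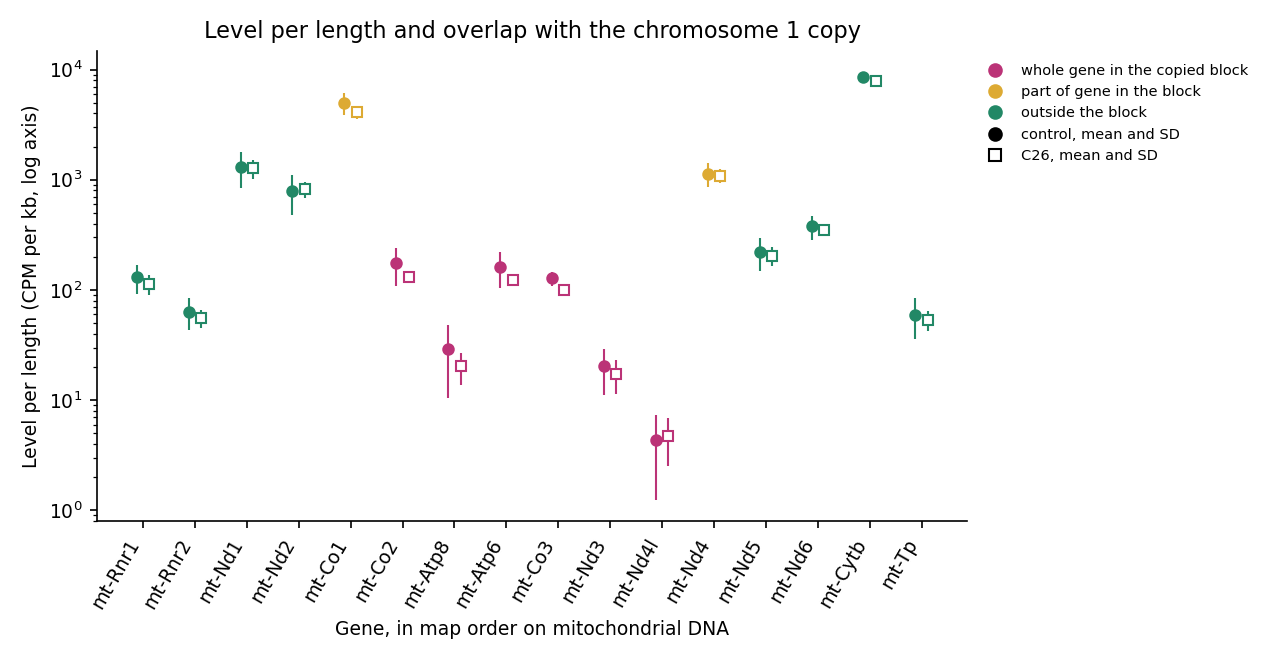
Level per length (CPM per kb, log axis, mean and SD over 4 libraries) of the 16 tested mitochondrial genes in map order, filled circles for control and open squares for C26, coloured by overlap with the stretch copied on chromosome 1. Genes wholly in the stretch lie at or below 175 CPM per kb in control, while mt-Cytb reaches 8530 CPM per kb.

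**Figure D3:**
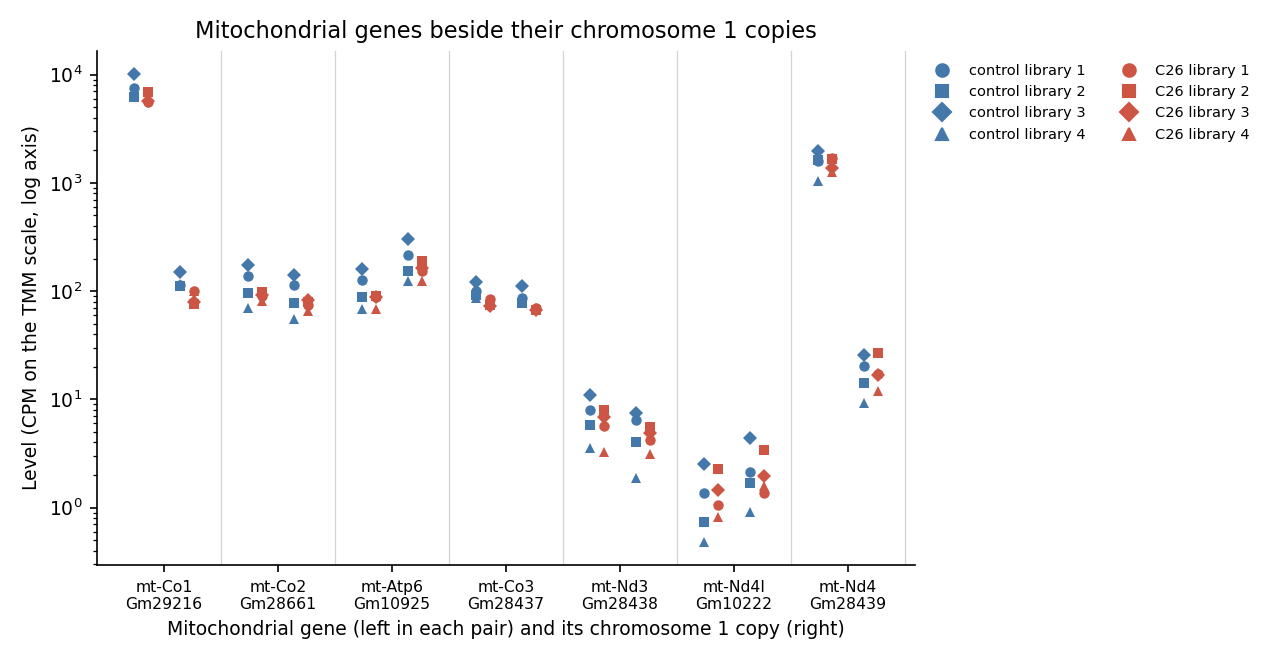
Level in each library (CPM, log axis) of each mitochondrial gene with an annotated chromosome 1 copy (left of each pair) and of that copy (right), blue for control and red for C26. Counts of Gm28437 were 0.883 times those of mt-Co3 in control, while those of Gm29216 were 0.0159 times those of mt-Co1.

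All 13 protein genes, both rRNA genes and 1 tRNA gene passed the low-count filter, and 1 of these 16 genes, mt-Co3, changed, against 7.76% of all genes tested. It fell, and 0 of the 16 rose, while over all genes 4.12% fell and 3.64% rose, so that 1 of 16 (6.25%) is near the background. An unadjusted p under 0.05 was found for 1 of the 16, against 25.6% of all genes. Groups that do not overlap were found for the same gene alone, lower in C26, against 8.14% of all genes lower and 7.91% higher (16.1% in all). In DESeq2 and in limma-voom the count was also 1 lower and 0 higher. The median log2 fold change of the 16 was -0.18, with 14 below 0, against a median of 0.005 and 49% below 0 over all genes. Without control library 3 the number below 0 was 8 of 16. In the main fit the median SE of the 16 was 0.258, against 0.11 over all genes, so that modest changes were within the error for most members.

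**Figure D4:**
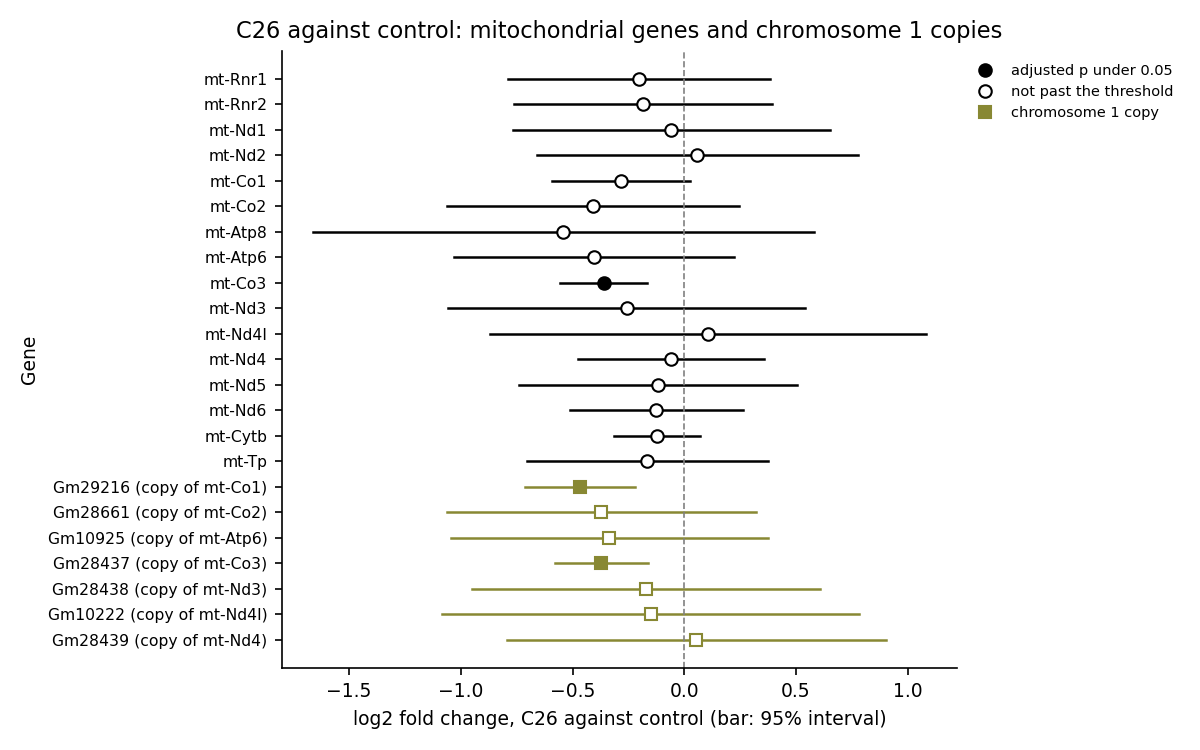
log2 fold change of C26 against control with its 95% interval for the 16 tested mitochondrial genes (circles) and the 7 chromosome 1 copies (squares), filled where the adjusted p was under 0.05. Among the mitochondrial genes the interval of mt-Co3 alone, from -0.56 to -0.17, lies wholly below 0; the same holds for the copies Gm28437 and Gm29216.

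Complex IV, cytochrome c oxidase, passes electrons to oxygen, and its catalytic core is made of the products of mt-Co1, mt-Co2 and mt-Co3. The mt-Co3 gene (chrM:8607-9390, plus strand) stood at 101.2, 92.9, 120.3 and 86.5 CPM in control and at 83.8, 74.7, 73.2 and 80.7 CPM in C26. All 4 C26 libraries lay below all 4 control libraries. The log2 fold change was -0.36 ± 0.0918 (SE, edgeR adjusted p = 0.0265). mt-Co3 no longer passed when any of 5 libraries was left out, namely numbers 1 and 3 of the controls and numbers 2, 3 and 4 of C26, with adjusted p between 0.0505 and 0.0764 in edgeR. Nor did it pass in edgeR when scaled by total library size (log2 -0.29, adjusted p = 0.0516) and with the muscle level as a covariate (log2 -0.22, adjusted p = 0.432). Without C26 libraries 2 and 3, which had the highest muscle levels, it also missed the threshold (log2 -0.286, edgeR adjusted p = 0.154). Because muscle level mostly followed group, the covariate fit cannot tell muscle level from treatment.

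The chromosome 1 copy of mt-Co3 moved alike. Gm28437 was at 86.9, 77.7, 111 and 78.2 CPM in control and at 70.4, 67.3, 67.5 and 69.0 CPM in C26, without overlap (log2 -0.37 ± 0.0986 SE, edgeR adjusted p = 0.0327). When the counts of each gene and its copy were added together, the log2 fold change of mt-Co3 was -0.365 (edgeR adjusted p = 0.027). Gm28437 and mt-Co3 had no mismatch in their aligned bases, and how shared reads were counted is not given in the sources used here. Neither the copy nor the summed counts are therefore an independent check on the fall of mt-Co3. Gm29216, the copy of the end of mt-Co1, was the other copy that fell, with 122.2 ± 17.8 CPM in control and 88.5 ± 13.4 CPM in C26. Its log2 fold change was -0.47, with an SE of 0.115 and an adjusted p of 0.0275 in edgeR. Of the 7 copies, 2 fell and 0 rose, against 4.12% and 3.64% of all genes.

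The mt-Co1 gene (chrM:5328-6872), the subunit with the oxygen-reducing site, was the member with the next smallest p. It stood at 7476.8, 6244.9, 10112.3 and 6825.9 CPM in control and at 5607.6, 6961.4, 5667.3 and 6942.6 CPM in C26. The groups overlapped, with control library 3 well above the rest, and the test was not passed (log2 -0.28, 95% interval -0.59 to 0.02, edgeR adjusted p = 0.231). With no filter on low counts mt-Co1 did pass (log2 -0.28, edgeR adjusted p = 0.0246). mt-Co2, which encodes the subunit that receives electrons from cytochrome c, was at 138, 96.8, 174 and 69.8 CPM in control and 90.1, 97.6, 92.3 and 81.0 CPM in C26. The 4 C26 values lay within the control range (log2 -0.41, 95% interval -1.06 to 0.245, edgeR adjusted p = 0.405).

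Complex III receives electrons from ubiquinol, and cytochrome b, the product of mt-Cytb, is the subunit of it that mitochondrial DNA encodes. mt-Cytb (chrM:14145-15288) had the highest level of any member, at 8641.5, 10611.0, 10738.5 and 9042.9 CPM in control and 9397.2, 9909.0, 7804.7 and 8746.4 CPM in C26. It varied less between control libraries than any other member, with a coefficient of variation of 11.0%, and gave the narrowest interval. Its log2 fold change was -0.12 (95% interval -0.31 to 0.07, edgeR adjusted p = 0.418), so that a fall to below 0.804 of the control level lies outside that interval. Together mt-Cytb and mt-Co1 held 74.25% to 84.2% of the mitochondrial counts in every library.

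Complex I takes electrons from NADH, and 7 of its membrane subunits are encoded by mitochondrial DNA. None of the 7 passed edgeR's test, with 0 at an unadjusted p under 0.05 and a median log2 fold change of -0.06; DESeq2 and limma-voom also called 0. mt-Nd1 (chrM:2751-3707) was at 1413.9, 1133.7, 1788.6 and 706.9 CPM in control and 1108.3, 1438.3, 1369.2 and 933.9 CPM in C26. The control libraries spanned 2.53-fold and enclosed all 4 C26 values (log2 -0.06, 95% interval -0.765 to 0.65). mt-Nd2 was at 816 ± 320.5 against 850.0 ± 139 CPM (log2 0.06), mt-Nd4 at 1559.6 ± 387.2 against 1497.1 ± 211.4 CPM (log2 -0.06) and mt-Nd5 at 403.4 ± 134.5 against 372 ± 70.7 CPM (log2 -0.12). The remaining plus-strand genes, mt-Nd3 and mt-Nd4l, both inside the copied stretch, had 7.06 ± 3.155 against 5.945 ± 2.02 CPM and 1.28 ± 0.907 against 1.40 ± 0.646 CPM.

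mt-Nd6 (chrM:13552-14070) is the protein gene read from the minus strand. It stood at 237, 214, 209 and 125 CPM in control and at 179.7, 168.3, 197.6 and 175.1 CPM in C26, with control library 4 below the C26 range and the other 3 above it (log2 -0.125, 95% interval -0.51 to 0.26, edgeR adjusted p = 0.692). Without control library 4 its log2 fold change was -0.29 and it passed (edgeR adjusted p = 0.0434). The ratio of its counts to those of mt-Cytb, which lies beside it on the other strand, was 0.0274, 0.0202, 0.0195 and 0.0138 in control and 0.0191, 0.0170, 0.0253 and 0.0200 in C26. The groups overlapped (exact two-sided permutation p = 0.943, adjusted p = 0.971 over 3 ratios, with 0.0286 the smallest p that 70 arrangements allow). mt-Nd6 also overlaps the end of mt-Nd5 by 14 bases on the opposite strand, and the strand setting used in counting is not given in the sources used here.

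The ATP synthase genes mt-Atp8 and mt-Atp6 encode membrane subunits, mt-Atp6 forming part of the proton channel. They share 43 bases read in different frames, shown here because a read confined to them belongs to both genes; the capitals mark the start codon of mt-Atp6 and the stop codon of mt-Atp8.
mt-Atp8 and mt-Atp6, chrM:7927-7969, plus strand: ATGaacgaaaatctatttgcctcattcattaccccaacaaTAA
mt-Nd4l and mt-Nd4 overlap in the same way by 7 bases, in capitals here, with 15 bases to each side.
mt-Nd4l and mt-Nd4, chrM:10152-10188, plus strand: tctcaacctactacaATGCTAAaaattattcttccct
mt-Atp6 was at 125, 89.0, 159 and 68.7 CPM in control and 87.3, 90.6, 88.4 and 68.2 CPM in C26 (log2 -0.40, 95% interval -1.03 to 0.22, edgeR adjusted p = 0.39). mt-Atp8 was at 7.22, 3.28, 10.9 and 2.55 CPM in control and 3.96, 5.19, 5.11 and 2.28 CPM in C26 (log2 -0.54, 95% interval -1.66 to 0.58). Both groups of libraries overlapped for both genes, and control libraries 1 and 3 held the highest values. The ratio of mt-Atp8 to mt-Atp6 counts ran from 0.0368 to 0.06845 in control and from 0.0334 to 0.0578 in C26 (exact two-sided permutation p = 0.971, adjusted p = 0.971 over 3 ratios).

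The rRNA genes mt-Rnr1 and mt-Rnr2 encode the RNAs of the small and the large subunit of the mitochondrial ribosome. mt-Rnr1 (chrM:70-1024) was at 135.5, 106.1, 171.2 and 85.2 CPM in control and 98.8, 114.4, 137.0 and 82.65 CPM in C26 (log2 -0.20, 95% interval -0.79 to 0.38, edgeR adjusted p = 0.656). mt-Rnr2 (chrM:1094-2675) was at 104, 79.4, 144.2 and 73.35 CPM in control and 76.0, 101, 104 and 71.8 CPM in C26 (log2 -0.185, 95% interval -0.76 to 0.39, edgeR adjusted p = 0.682). Both genes were highest in control library 3 and lowest in C26 library 4, and the groups overlapped. Per length, control levels were 130.4 CPM per kb for mt-Rnr1 and 63.3 CPM per kb for mt-Rnr2, below the 5 protein genes outside the copied stretch. The ratio of mt-Rnr2 to mt-Rnr1 counts was 0.748 to 0.861 in control and 0.762 to 0.880 in C26 (exact two-sided permutation p = 0.543, adjusted p = 0.971 over 3 ratios).

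Among the 22 tRNA genes, 19 had no count in any library, which allows up to 0.139 to 0.176 CPM per library by counting error. The cysteine tRNA gene mt-Tc and the serine tRNA gene mt-Ts1 had 1 count each, both in control library 1. The proline tRNA gene mt-Tp (chrM:15356-15422, minus strand) was the exception, and is printed whole as the tRNA gene that could be tested.
mt-Tp, chrM:15356-15422, minus strand: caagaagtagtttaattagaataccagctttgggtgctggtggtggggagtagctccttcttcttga
It had 96, 57, 122 and 40 counts in control and 50, 80, 91 and 67 counts in C26. Its levels ran from 2.425 to 6.03 CPM in control and from 2.64 to 4.15 CPM in C26 (log2 -0.17, 95% interval -0.705 to 0.37, edgeR adjusted p = 0.722). The C26 values lay within the control range.

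The members varied together between control libraries, and more than genes in general. Control library 3 was the highest of the 4 controls for 15 of 16 members, mt-Nd6 being the exception, and control library 4 was the lowest for 14 of 16. Within C26, library 4 was the lowest for 10 of 16. The median coefficient of variation of the members was 34.7% in control and 17.65% in C26, against 9.76% and 11.5% over all genes tested. It was higher in control than in C26 for all 16 members. The spread was unequal across members: the highest control library exceeded the lowest by 1.24-fold for mt-Cytb, 1.39-fold for mt-Co3 and 1.62-fold for mt-Co1, but by 2.53-fold for mt-Nd1, 2.645-fold for mt-Nd2 and 4.27-fold for mt-Atp8. Accordingly mt-Nd1 took 3.75% of the mitochondrial counts in control library 4 and 6.53% in control library 3, whereas mt-Co1 took 36.2% and 36.9%. Without control library 3 the median log2 fold change of the 16 members was 0.01, and without control library 4 it was -0.32.

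**Figure D5:**
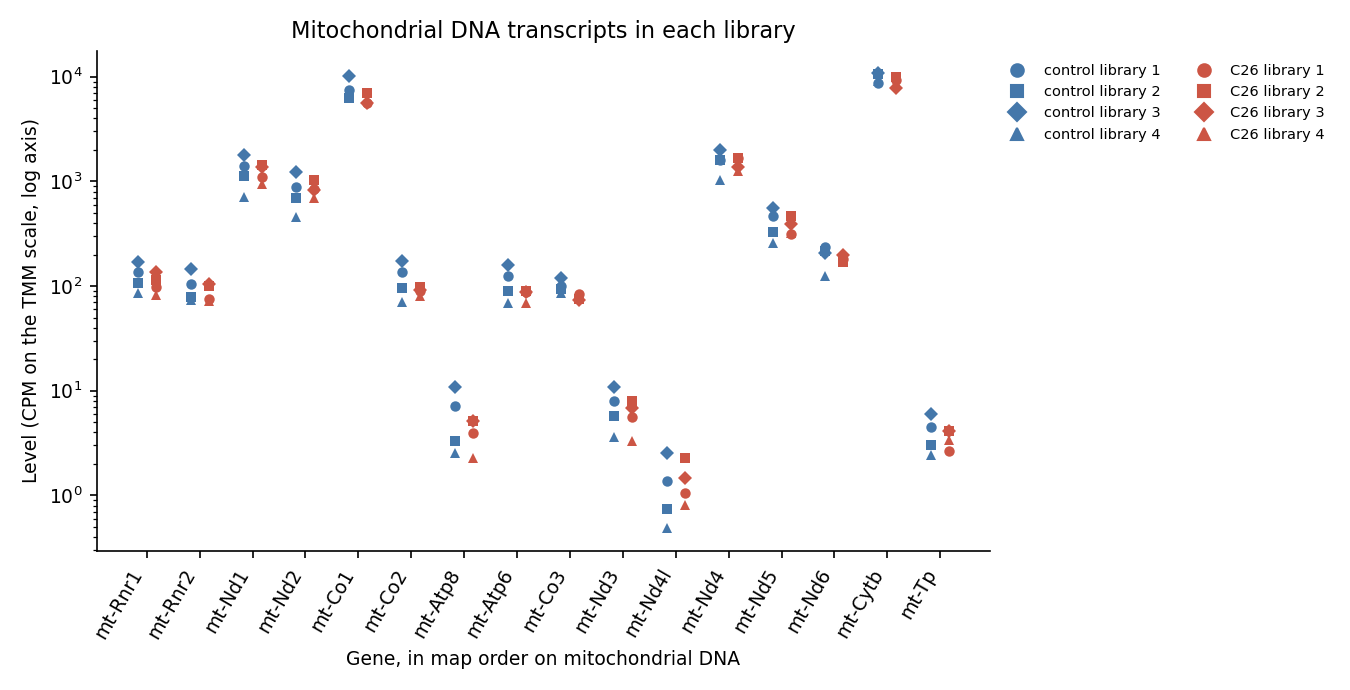
Level of the 16 tested mitochondrial genes in each library (CPM on the TMM scale, log axis), in map order, with blue symbols for control and red for C26 and 1 symbol shape per library number. Control library 3 (blue diamonds) is the highest control for all genes but mt-Nd6, and the C26 libraries mostly lie within the control range, apart from mt-Co3.

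Nuclear genes for the same complexes included 17 that fell and 0 that rose, of 73 tested subunits of complexes I, III, IV and V (23.3% lower, against 4.12% of all genes). The rest did not pass. Over all 73 the median log2 fold change was -0.21 and the median SE 0.0799, with 71 below 0, against 49% of all genes. An unadjusted p under 0.05 in edgeR was found for 24 of 36 in complex I (66.7%) and 7 of 9 in complex III (77.8%). For complex IV it was found for 8 of 11 (72.7%) and for complex V for 10 of 17 (58.8%), against 25.6% of all genes. Complex IV had 4 of 11 lower, complex I 8 of 36, complex III 2 of 9 and complex V 3 of 17. Among the 11 of complex IV the genes that fell were Cox4i1 (663.5 ± 47.5 to 515.4 ± 36.55 CPM), Cox5a (107.3 ± 6.99 to 87.6 ± 4.72 CPM), Cox8a (323.1 ± 14.8 to 268.3 ± 18.2 CPM) and Cox5b (194.5 ± 11.8 to 160.0 ± 18.4 CPM). Cox6a2, a muscle isoform of complex IV counted in the muscle list and not among these 11, also fell (log2 -0.72, edgeR adjusted p = 0.00419). In complex III they were Uqcrq (213.0 ± 6.34 to 149.9 ± 13.1 CPM) and Uqcr10 (160.2 ± 13.5 to 121.9 ± 14.4 CPM), both small subunits. In complex I the 4 with the smallest p were Ndufa2 (99.9 ± 11.45 to 71.75 ± 8.04 CPM), Ndufs4 (142.1 ± 7.79 to 113.6 ± 6.17 CPM), Ndufs7 (60.95 ± 4.06 to 48.4 ± 2.66 CPM) and Ndufb7 (121.1 ± 12.5 to 92.35 ± 13.05 CPM). In complex V they were Atp5d (250.2 ± 8.11 to 193.2 ± 20.8 CPM), Atpif1, the inhibitor of the enzyme (166.5 ± 16.3 to 125.1 ± 13.3 CPM), and Atp5h (301.6 ± 16.6 to 252.5 ± 16.0 CPM). Atpif1 encodes a regulator, and the counts of subunits given here include it. Complex II, which has no subunit from mitochondrial DNA, had 0 of 4 members past edgeR's threshold, and 0 at an unadjusted p under 0.05. Sdhb stood at 109.8 ± 7.498 against 100.7 ± 6.04 CPM and Sdhd at 86.99 ± 1.94 against 80.46 ± 6.98 CPM. Whether nuclear and mitochondrial genes differed in their change was not tested.

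Of the 13 genes named for complexes I, III, IV and V, leaving out Cox6a2, 8 passed in each of the 8 fits that left out a library. Uqcrq, Ndufa2 and Cox4i1 were among them. The other 5 missed the threshold in some: Cox5a without control library 3, Ndufb7 in 5 fits (those lacking number 1, 2 or 3 of the controls, or number 2 or 4 of C26), and Atp5h, Cox8a and Cox5b in 6 of the 8 fits each (for all 3, those lacking number 2 or 3 of the controls or 2, 3 or 4 of C26, and also control 1 for Atp5h and Cox5b and control 4 for Cox8a), with adjusted p in edgeR up to 0.1065, 0.0878 and 0.122. Scaling by total library size ended the calls of Atp5h, Cox8a and Cox5b (adjusted p in edgeR 0.0995, 0.0776 and 0.109), and leaving out C26 libraries 2 and 3 ended those of 6, namely these 3, Ndufs7, Ndufb7 and Atpif1. With the muscle level as a covariate 0 of the 13 passed (adjusted p in edgeR 0.0689 to 0.348), while all 13 log2 fold changes stayed below 0. They ran from -0.43 to -0.22, against -0.51 to -0.26 without the covariate, and the SEs from 0.1045 to 0.154, against 0.0684 to 0.0978. For Ndufs4 the log2 fold change was -0.33 with the covariate and -0.32 without, and for Ndufa2 -0.27 and -0.48. Here too the covariate fit cannot tell muscle level from treatment.

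Factors that copy, process and stabilise mitochondrial RNA did not pass the test in the main fit. Of 53 tested, made up of 22 genes for mitochondrial DNA transcription and upkeep and 31 for RNA processing and stability, 0 passed edgeR's threshold, and 12 had an unadjusted p under 0.05, 11 of them with values below 0; that is 22.6%, under the 25.6% of all genes. The closest were Top1mt, a mitochondrial topoisomerase (35.97 ± 2.645 against 29.75 ± 1.795 CPM, edgeR adjusted p = 0.0531), Twnk, the mitochondrial DNA helicase (57.1 ± 2.40 against 48.3 ± 3.46 CPM, adjusted p = 0.0569), and the RNA helicase Ddx28 (28.4 ± 1.48 against 23.6 ± 1.49 CPM, adjusted p = 0.0625). Pus1, a pseudouridine synthase, stood at 71.1 ± 7.58 against 59.85 ± 6.55 CPM (adjusted p = 0.104 in edgeR). Top1mt, Twnk and Ddx28 passed in DESeq2, with adjusted p of 0.0253, 0.0285 and 0.0342 (0 passed in the main edgeR fit). Top1mt also passed in limma-voom (adjusted p = 0.0408) and in edgeR with RLE size factors, another normalization (adjusted p = 0.0487). Twnk passed in edgeR without C26 libraries 2 and 3 (adjusted p = 0.0467). Polrmt stood at 31.8 ± 1.695 against 30.5 ± 2.07 CPM and Tfam, which packs mitochondrial DNA and starts transcription, at 76.8 ± 6.53 against 70.6 ± 4.72 CPM. Lrpprc and Slirp, whose products bind and stabilise mitochondrial mRNA, stood at 107 ± 7.26 against 100.7 ± 8.57 CPM and 47.3 ± 3.96 against 42.0 ± 3.03 CPM. Of 9 biogenesis regulators 0 passed in edgeR, with 1 (11.1%, against 25.6% of all genes) at an unadjusted p under 0.05, the coactivator gene Ppargc1b, at 3.84 ± 0.406 against 2.79 ± 0.431 CPM (edgeR adjusted p = 0.124), while Ppargc1a was at 0.876 ± 0.229 against 0.734 ± 0.429 CPM. Gabpa, a transcription factor subunit, was at 63.7 ± 5.72 against 70.97 ± 7.16 CPM (adjusted p = 0.273 in edgeR).

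Markers of other cells that tumour tissue can hold were examined beside these values. The summed level of the 21 muscle genes was 69.1 to 115.5 CPM in control and 87.2 to 847 CPM in C26. Of the 17 tested, 10 (58.8%, against 25.6% of all genes) had an unadjusted p under 0.05 in edgeR. Their median log2 fold change was 3.19, with 1 below 0. Past edgeR's threshold, 1 rose and 1 fell, against 3.64% and 4.12% of all genes. Myh1, a fast myosin gene, rose (0.0661 ± 0.132 to 3.69 ± 2.31 CPM). Cox6a2, a complex IV isoform of muscle and the gene below 0, fell (29.2 ± 6.33 to 17.7 ± 0.876 CPM). Of 9 fibroblast genes 0 passed in edgeR, and their summed level ran from 3280.8 to 5064.2 CPM in control and from 5533.7 to 7662.6 CPM in C26, without overlap, with 4 (44.4%, against 25.6% of all genes) at an unadjusted p under 0.05. Of 9 myeloid genes 0 passed in edgeR and 3 (33.3%, against 25.6%) had an unadjusted p under 0.05, with sums of 955.4 to 1420.9 CPM and 856 to 1274.9 CPM. C1qa, a macrophage complement gene, passed in DESeq2 (adjusted p = 0.00101) and limma-voom (0.0313), as did Adgre1 in DESeq2 (0.0402), and the collagen genes Col1a1 and Col3a1 passed there as well (0.00561 and 0.0168). Of 6 brown fat and heart markers, Ucp1, Cidea, Myh6 and Nppa were at or below 0.264 CPM in every library. The other 2, Myl7 and Tnni3, were tested, and both (100%, against 25.6%) had an unadjusted p under 0.05 in edgeR. Of these 1 fell past the threshold, against 4.12% of all genes, namely Myl7, from 3.20 ± 0.445 to 1.26 ± 0.654 CPM. Tnni3 ran from 2.18 to 2.97 CPM in control and from 0.810 to 2.59 CPM in C26. The part of these cells in the mitochondrial values was not tested.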

How the data were processed

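RNA of 8 samples was sequenced after oligo(dT) selection, 4 per group. The authors deposited raw counts per gene, which were used as deposited. Per the submitters' processing notes, Trim Galore 0.6.7, HISAT2 2.2.1, featureCounts 2.0.1 and mm10 were used, while the tools in the series' design text are RSEM, STAR, Cutadapt and Picard. Of the annotation, strand setting and handling of reads with several matches, the sources used here say nothing. Symbols came from GENCODE M21 for 52073 of 56691 identifiers, and identifiers without one held 0.769% of counts.

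Counts were tested with edgeR 4.0.16 in R 4.3.3 (TMM, filterByExpr, quasi-likelihood test, Benjamini-Hochberg adjustment over 15755 genes), after the steps were tested on simulated data. Copies were sought among GENCODE M21 transcripts with BLAST 2.17.0, at 90% identity or more over at least 100 bases. Ratios were compared by exact permutation. Floors for a count of 0 used 3 counts and cover counting error only. The members and gene lists were chosen with earlier results of these data known. All members are accounted for. In each nuclear list up to 4 genes with the smallest p among those past the threshold were named, and otherwise the 2 with the smallest p;  Polrmt, Tfam, Lrpprc, Slirp and Ppargc1a were always named. Alternatives were another normalization, filter or tool, a replicate block, a muscle covariate, libraries left out and, chosen after seeing the data, counts summed with the chromosome 1 copies.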

Additional observations from a re-analysis of the deposited data

Results flagged for a closer look

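In 10 of 128 groups of 4 libraries, 1 library stood apart from the other 3 by Dixon's criterion at the 95% level, which chance alone meets in about 1 in 20 groups. Among mitochondrial genes and their copies, mt-Atp6 was at 68.17 CPM in C26 library 4, below the next lowest at 87.31 CPM. Gm29216 was at 148.7 CPM in control library 3, above the next at 116.7 CPM. In C26 library 1, Ndufs7 was highest at 52.37 CPM, Cox8a at 295.4 CPM and Atp5h at 276.3 CPM, while Sdhd was lowest at 70.1 CPM. In C26 library 2, Ndufa2 was lowest at 59.75 CPM and Polrmt highest at 33.59 CPM. Cox6a2 was at 38.62 CPM in control library 4, and Myh1 at 0.2643 CPM in control library 2 with 0 in the other controls.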

How the results depend on the processing

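The count of all genes changed was 1223, and 1949 with total library size (78.7% higher in C26, against 46.9%, with the median of all genes moved to 0.08), 1813 with DESeq2, 130 with the muscle covariate and 643 to 1457 with 1 library left out. The count of mitochondrial genes lower was 0 with total library size, the covariate, or without C26 libraries 2 and 3, was 2 without a filter (mt-Co1 and mt-Co3) and 0 to 2 with 1 library left out; the cause was not tested. No mitochondrial gene was higher in any of these fits. Same-numbered samples correlated at -0.023, 0.135, -0.019 and 0.093, and 4 of 8 libraries correlated best with their own number, so the numbers were not taken as pairs; with a replicate block 1184 genes changed and 1 mitochondrial gene was lower. The block ended the calls of Cox8a and Atp5h (edgeR adjusted p 0.0548 and 0.0586), and C1qa, Adgre1 and Col1a1 passed with it (0.00671, 0.0374 and 0.0496). Signs turned as follows: with total library size, mt-Nd1 0.016, mt-Nd4 0.014 and Polrmt 0.012; with the block, mt-Nd1 0.002; with the covariate, mt-Nd2 -0.108, mt-Nd4l -0.49 and Ppargc1a 0.337; without C26 libraries 2 and 3, mt-Nd2 -0.083, mt-Nd4l -0.479, Ppargc1a 0.296 and the mt-Nd6 to mt-Cytb ratio -0.006; with summed copies, mt-Nd4l -0.047. With 1 library left out, log2 fold changes that turned ran from -0.31 to 0.04 for mt-Rnr2, -0.25 to 0.16 for mt-Nd1, -0.14 to 0.315 for mt-Nd2, -0.47 to 0.034 for mt-Nd3, -0.21 to 0.074 for mt-Nd4, -0.28 to 0.081 for mt-Nd5, -0.22 to 0.66 for mt-Nd4l and -0.34 to 0.10 for mt-Tp. The ratios ran from -0.009 to 0.061 for mt-Rnr2 to mt-Rnr1, -0.133 to 0.196 for mt-Nd6 to mt-Cytb and -0.154 to 0.144 for mt-Atp8 to mt-Atp6.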
